A study of Mus musculus with 5 samples.

Results

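Histone lysine demethylases take methyl groups off lysines of the histone tails, and the 10 genes described here are *Jhdm1d* (the annotation's name for *Kdm7a*), *Phf2*, *Kdm1a*, *Kdm2a*, *Kdm2b*, *Kdm4a*, *Kdm4b*, *Kdm4c*, *Kdm5b* and *Kdm6b*. They were taken by name from a set of 22380 protein-coding genes annotated on the mouse assembly NCBIM37, which mm9 denotes, and all 10 were found. Their binding by *Paupar*, a long non-coding RNA transcribed next to *Pax6*, was read from a list of 2849 peaks made by CHART-Seq in N2A cells. CHART-Seq pulls an RNA out of crosslinked chromatin with biotinylated DNA oligonucleotides and sequences the genomic DNA that comes with it. N2A (neuro 2A) is a mouse neuroblastoma cell line, and the cells of all 5 libraries were given no treatment. *Paupar* was pulled down in 2 of them, a control oligonucleotide of the bacterial *LacZ* sequence was used in 2, and 1 was input DNA. A peak counted for a gene when its midpoint lay in the gene's regulatory domain, an interval that begins 5 kb before the gene start, ends 1 kb after it and grows on each side until it meets the same interval of a neighbouring protein-coding gene, by at most 1 Mb.

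The list gives each peak a position and a score and holds no value per library, so no peak has a replicate error and the number of reads behind it is unknown. All counts below are therefore descriptions of a single list. The score is called that because nothing in the list names its unit. It ran from 5.34 to 305.4 over all peaks, with a median of 12.7, and peak width had a median of 556 bp.

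Demethylases belong to a pair of enzyme families. KDM1 enzymes oxidise the methylated lysine with a flavin cofactor, and JmjC-domain enzymes use iron and 2-oxoglutarate. Removing methylation from H3K9 or H3K27 takes away marks of silent chromatin, whereas removing it from H3K4 takes away a mark of active promoters and enhancers. In neural progenitors these enzymes are known for opening or closing genes as cells leave the cycle and differentiate.

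*Paupar* peaks lay in the domains of *Jhdm1d*, *Kdm4a*, *Kdm4b* and *Kdm6b*, and none lay in the domains of the other 6 genes. The 4 genes are 40% of the 10, beside 16.5% of all protein-coding genes (3686 of 22380). The 10 were chosen with earlier results of these data known, so the 40% is a description and no measure of enrichment. Over all 24 demethylase genes looked at, 5 had a peak. The 4 listed genes held 7 peaks in all, 3 for *Kdm4b*, 2 for *Jhdm1d* and 1 each for *Kdm4a* and *Kdm6b*. In the domains of 2 of the 10 (*Jhdm1d* and *Kdm4b*) lay 2 or more peaks, as was the case for 4.42% of all protein-coding genes. A peak within the interval at the gene start, before it grows, was found for *Kdm4b* alone among the 10, and for 1.71% of all protein-coding genes. By histone mark, the genes with a peak encode enzymes for methylated H3K9 and H3K27 (*Jhdm1d*), H3K9 and H3K36 (*Kdm4a* and *Kdm4b*) and H3K27 (*Kdm6b*). Those without one encode enzymes for H3K4 (*Kdm1a* and *Kdm5b*), H3K9 (*Phf2*), H3K9 and H3K36 (*Kdm4c*) and H3K36 (*Kdm2a* and *Kdm2b*). Genes for H3K9 and H3K36 thus stood on both sides, and a link between peaks and the mark was not tested over these 10 genes.

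**Figure D1:**
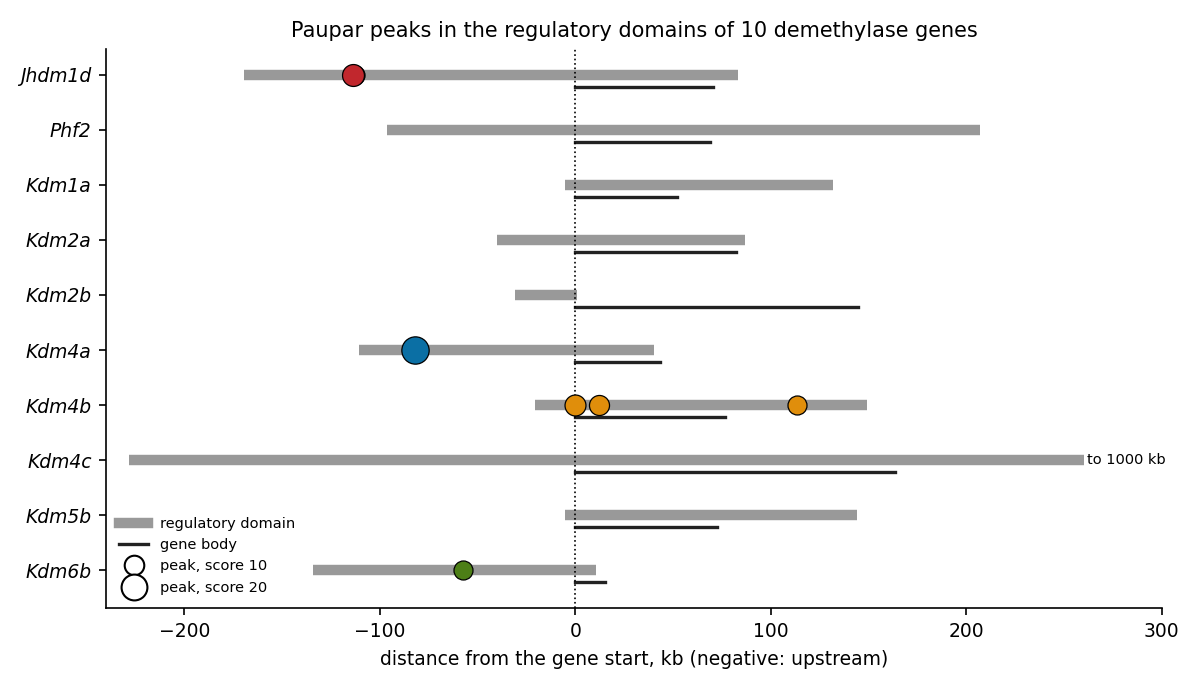
Position of each *Paupar* peak (circles, with area growing with the score) in the regulatory domains (grey bars) of the 10 genes, in kb from the gene start, with upstream to the left and the gene body as a black line. The 4 genes with a peak held 7, of which 5 lie upstream of the gene start. The 2 *Jhdm1d* peaks are too close to be told apart at this scale.

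Longer domains have more room for a peak, and the 10 genes had long ones, with a median of 150.1 kb (range, 31.9 to 1228.1 kb) against 89.6 kb over all protein-coding genes. Their domains summed to 2.7 Mb, 45.6% of it the domain of *Kdm4c*. They held 2.6 peaks per Mb, against 1.17 per Mb over the domains of all genes, with the same limit of choice. Among all genes with a domain of 100 to 200 kb, 18.7% had a peak. In that range lay 6 of the 10 genes, and 3 of these (*Kdm4a*, *Kdm4b* and *Kdm6b*) had one. Of the pair with a domain of 200 to 500 kb, *Jhdm1d* had a peak and *Phf2* did not, where 30% of all such genes had one. *Kdm4c*, in the range of 500 kb or more, had none although 37.5% of such genes did, and *Kdm2b*, with the shortest domain of the 10, had none in a range where 5.07% did.

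**Figure D2:**
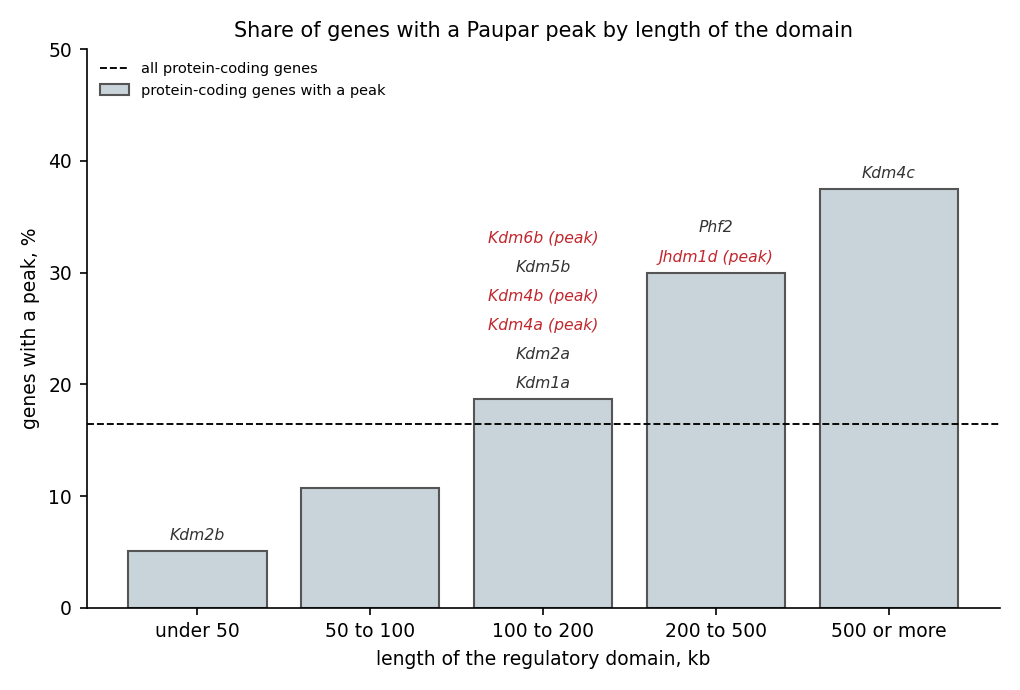
Share of protein-coding genes with a *Paupar* peak (bars, %) by the length of the regulatory domain in kb, with the 10 demethylase genes written above the range they fall in and those with a peak in red. The share rises from 5.07% under 50 kb to 37.5% at 500 kb or more, and the dashed line is the 16.5% of all genes.

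*Jhdm1d* (ENSMUSG00000042599) encodes KDM7A, a JmjC enzyme with a PHD finger that removes methyl groups from H3K9 and H3K27. It lies on the minus strand of chromosome 6 at 39086622-39156788, and its domain of 252.8 kb reaches 169.4 kb upstream of the gene start. Both of its peaks were far upstream and close together. The nearer was 281 bp wide with a score of 9.32 (rank 2182 of the 2849), and its midpoint lay 112477 bp upstream of the gene start. The farther was 543 bp wide with a score of 13.26 (rank 1334), and its midpoint lay 113717 bp upstream. The gap between them was 828 bp and the pair spanned 1652 bp. In the whole list 13% of peaks had another within 10 kb. One of the pair was below and the other just above the median score.

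The pair lay in intergenic sequence, where neither gene's name alone describes the site. *Slc37a3*, a sugar-phosphate transporter gene on the same strand, starts 58441 bp from the midpoint of the first peak and 57201 bp from that of the second, so both were nearer to its start than to that of *Jhdm1d*. The second midpoint was 14264 bp past the end of *Slc37a3*. The domains of the 2 genes held the same 2 peaks and no other. The GC content was 57.7% in the first peak and 53.2% in the second, against a median of 48.1% over all peaks. In the regions of the same size to the left and right it was 57.3% and 49.1% for the first and 39.6% and 49.9% for the second, so the first was hardly above its left side. The first also held 10 CpG, or 3.56 per 100 bp against a median of 0.977.

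The sequences of the *Jhdm1d* pair are shown because the study built reporters from this stretch. The first is the whole peak and the second the central 300 bp, both on the plus strand of mm9, and capitals mark a CACCCC in the first and a GC box (GGGCGG, here on the minus strand) in the second, as matched in the central 200 bp.
Jhdm1d, 112.5 kb upstream, chr6:39269125-39269405: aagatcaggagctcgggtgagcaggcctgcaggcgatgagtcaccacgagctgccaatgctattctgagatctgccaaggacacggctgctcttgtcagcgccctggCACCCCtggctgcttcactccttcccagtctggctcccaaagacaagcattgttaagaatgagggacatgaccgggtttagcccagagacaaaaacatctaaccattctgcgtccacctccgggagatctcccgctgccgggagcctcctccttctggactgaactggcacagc
Jhdm1d, 113.7 kb upstream, chr6:39270355-39270654: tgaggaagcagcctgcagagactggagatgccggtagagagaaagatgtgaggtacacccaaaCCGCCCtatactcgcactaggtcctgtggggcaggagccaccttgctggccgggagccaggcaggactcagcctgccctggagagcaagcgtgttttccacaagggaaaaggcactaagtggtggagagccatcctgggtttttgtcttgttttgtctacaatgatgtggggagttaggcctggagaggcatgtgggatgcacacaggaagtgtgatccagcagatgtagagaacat

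The primers of 2 *Kdm7a* reporters placed their products beside and across this pair. Each primer matched the genome at 1 place over the part that pairs with it. The KDM7aUP2 product, 1292 bp at chr6:39269136-39270427, overlapped both peaks. It held 270 bp (96.1%) of the first and 194 bp (35.7%) of the second, and the 828 bp gap between them lay in it as well. The KDM7aUP1 product, 381 bp at chr6:39264562-39264942, overlapped no peak of the list, and 4182 bp separated it from the nearest one. Its centre lay 107964 bp upstream of the *Jhdm1d* start. The paper counts 2 peaks of *Kdm7a* among the *Paupar* binding sites cloned into its reporters. Why the KDM7aUP1 product overlaps no peak of the list is unknown. The primers are shown to mark the ends of both products, with the part that pairs with the genome in capitals and the added cloning end in lower case.
KDM7aUP1 forward: agacgctagcGCTCAATAGAATCCTGCCCC
KDM7aUP1 reverse: agacctcgagCCTGTATCCGGGAAAAGGGG
KDM7aUP2 forward: agacgctagcCTCGGGTGAGCAGGCCTGCA
KDM7aUP2 reverse: agacctcgagTATAGGGCGGTTTGGGTGTA
The reverse primer of KDM7aUP2 contains the GC box marked in the second peak, so this product ends just past it.

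*Kdm4a*, *Kdm4b* and *Kdm4c* encode JmjC enzymes with a pair of Tudor domains that remove methylation from H3K9 and H3K36. *Kdm4a* and *Kdm4b* had peaks and *Kdm4c* had none.

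*Kdm4b* (ENSMUSG00000024201, plus strand of chromosome 17, 56465485-56542293) held the most peaks, 1 at the gene start, 1 in the gene and 1 beyond its end. The first was 778 bp wide with a score of 11.85 (rank 1584) and covered the gene start, with 689 bp upstream of it and 89 bp from it onward. Peaks so placed were a minority, since 6.98% of the 2849 had a midpoint within 1 kb of a protein-coding gene start. It was also the most CpG-rich of the 7, with 62 CpG, or 7.97 per 100 bp. As many or more per 100 bp were found in 0.421% of all peaks. Its GC content was 61.2%, against 42.7% in the region of the same size to its left and 60.8% to its right, so the peak lay on the upstream slope of a GC-rich stretch. The second peak was 231 bp wide with a score of 10.61 (rank 1839), 11933 bp downstream of the start in the first intron. The third was 368 bp wide with a score of 9.29 (rank 2195) and lay 113572 bp downstream, past the end of *Kdm4b* and inside the sixth intron of *Ptprs*, a receptor-type tyrosine phosphatase gene on the opposite strand. That midpoint was 36849 bp from the *Ptprs* start, nearer than to the *Kdm4b* start. *Ptprs* shared the peaks in the first intron and in its own, and the peak at the *Kdm4b* start was the only 1 of the 7 that fell in no other gene's domain.

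The central 300 bp of the *Kdm4b* start peak are shown for their CpG content. Capitals mark an E-box (CANNTG, which reads the same on both strands) in the central 200 bp. A GC box on the minus strand near the right end lies outside those 200 bp and is unmarked.
Kdm4b start, chr17:56465034-56465333: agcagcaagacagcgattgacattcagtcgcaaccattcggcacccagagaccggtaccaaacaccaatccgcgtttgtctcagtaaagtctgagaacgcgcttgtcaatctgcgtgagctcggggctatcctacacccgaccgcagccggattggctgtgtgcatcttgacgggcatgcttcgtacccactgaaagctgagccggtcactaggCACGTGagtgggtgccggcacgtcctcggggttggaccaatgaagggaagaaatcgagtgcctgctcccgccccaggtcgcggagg

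*Kdm4a* (ENSMUSG00000033326, minus strand of chromosome 4, 117809562-117852648) had 1 peak, and it was the widest and highest-scoring of the 7. It was 1146 bp wide, wider than 86.1% of all peaks, and its score of 22.96 gave rank 474. Its midpoint lay 81855 bp upstream of the *Kdm4a* start, in the fifth intron of *Ptprf*, a phosphatase of the same family as *Ptprs*, and 29507 bp from the *Ptprf* start. The domains of *Kdm4a* and *Ptprf* held this peak and no other. Its GC content of 54.4% was lower than in the regions of the same size on either side, at 59.2% and 56.3%. Its central 300 bp are shown as those of the strongest of the 7 peaks, with a GC box and an E-box in capitals.
Kdm4a, 81.9 kb upstream, chr4:117934353-117934652: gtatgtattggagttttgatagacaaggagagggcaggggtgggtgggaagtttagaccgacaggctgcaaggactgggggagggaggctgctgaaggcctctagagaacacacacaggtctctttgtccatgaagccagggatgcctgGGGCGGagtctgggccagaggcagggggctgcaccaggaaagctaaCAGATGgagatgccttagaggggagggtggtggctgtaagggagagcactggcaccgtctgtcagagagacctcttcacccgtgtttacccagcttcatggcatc

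*Kdm6b* (ENSMUSG00000018476, minus strand of chromosome 11, 69212010-69227177) encodes JMJD3, which removes methylation from H3K27. Its 1 peak was 330 bp wide with a score of 9.29 (rank 2193), 57336 bp upstream of the gene start and within an intron of *Dnahc2*, an axonemal dynein heavy chain gene. This midpoint was 78099 bp from the *Dnahc2* start, so it was nearer to *Kdm6b*, and both genes' domains held it alone. The next peak on the chromosome was 1004575 bp away. The central 300 bp are shown because they hold the only PAX6 paired-domain match of the 7 peaks, GTCACACATCA, with 2 mismatches to the consensus. Capitals mark, in order, this match, a CACCCC and a match of 10 nt to a capture oligonucleotide.
Kdm6b, 57.3 kb upstream, chr11:69284363-69284662: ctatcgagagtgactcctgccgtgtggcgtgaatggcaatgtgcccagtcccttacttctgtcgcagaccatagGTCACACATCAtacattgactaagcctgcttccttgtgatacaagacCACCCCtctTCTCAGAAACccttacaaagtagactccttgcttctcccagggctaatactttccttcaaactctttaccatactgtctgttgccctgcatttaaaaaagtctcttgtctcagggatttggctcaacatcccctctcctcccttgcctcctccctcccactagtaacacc

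Within the list the 7 peaks were mostly narrow and of low score. Below the median width lay 5 of them, and below the median score 5. Their scores spanned 9.29 to 22.96 and their widths 231 to 1146 bp, and the *Kdm4a* peak alone lay above the upper quartiles of 839.0 bp and 18.9. All 7 lay above the median GC content, between 49.7% and 61.2%. The regions of the same size beside them ranged from 39.6% to 60.8%. Their median of 51% was also high, against 45.3% beside all peaks. Another gene's domain also held 6 of the 7, as it did for 84.8% of all peaks, and 4 of these 6 were nearer to the start of that gene. The median distance from a bound gene's start to its nearest peak was 69.6 kb for the 4 genes and 43.7 kb for all genes with a peak.

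**Figure D3:**
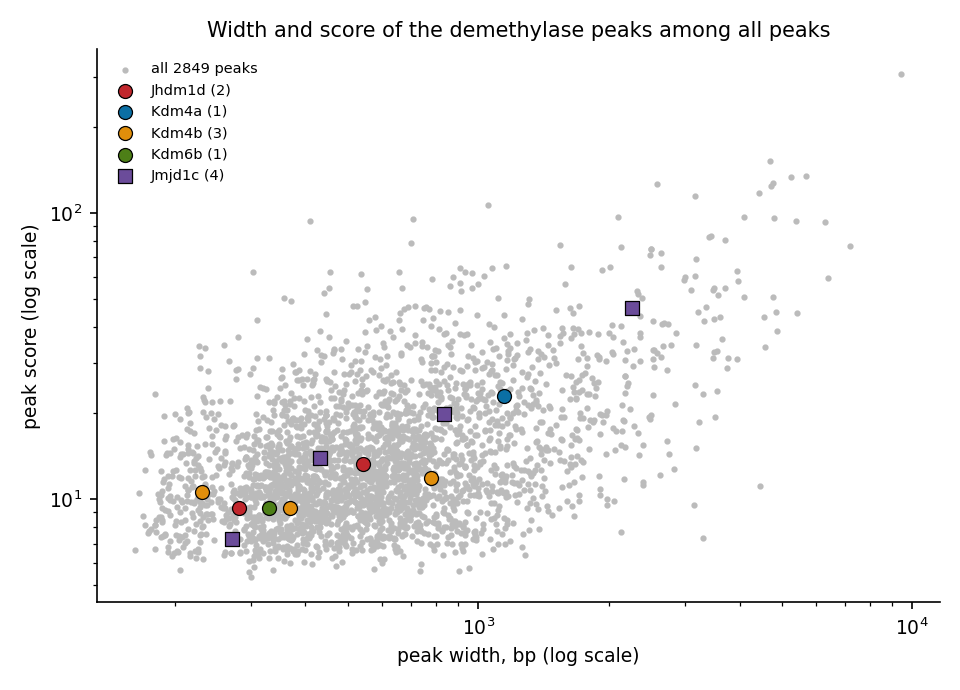
Width in bp and score of all 2849 peaks (grey) with the 7 peaks of the listed genes (circles) and the 4 peaks of *Jmjd1c*, another demethylase gene (squares), both axes on a log scale. Except for the *Kdm4a* peak (1146 bp, 22.96), the 7 sit at scores from 9.29 to 13.26.

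**Figure D4:**
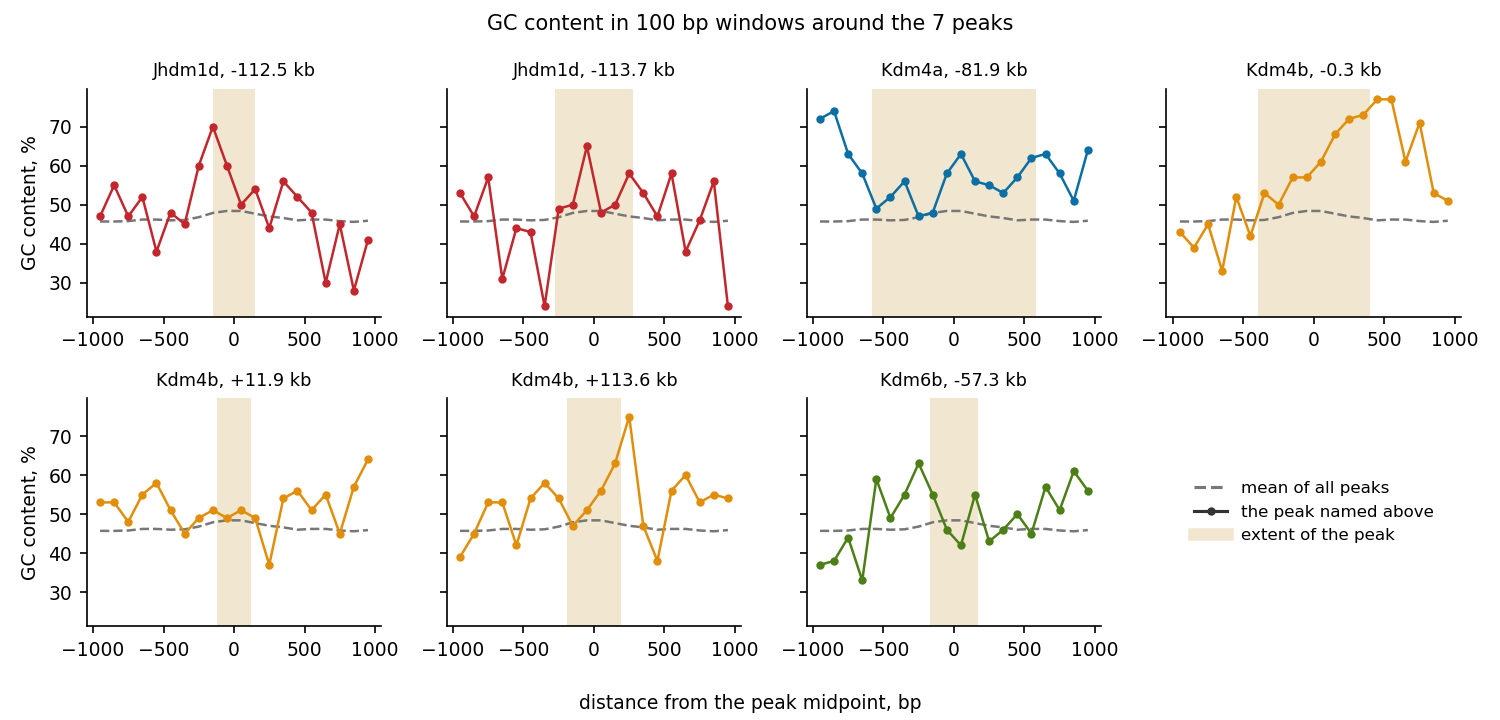
GC content (%) in 100 bp windows from 1000 bp left to 1000 bp right of each peak's midpoint on the plus strand, one panel per peak, titled with the gene and the distance from its start. The dashed line is the mean of 2848 peaks and the shaded band the extent of the peak. The *Kdm4b* start peak rises toward the gene from left to right, and the first *Jhdm1d* peak has its highest window, 70%, at its left border.

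Short sequence motifs were looked for on both strands in the central 200 bp of every peak. Windows of 200 bp centred 900 bp away from the midpoint were searched beside them. Motifs outside the central 200 bp were not counted, such as CATGTG and CAGATG near the right end of the second *Jhdm1d* stretch shown. An E-box was found in 4 of the 7, all of them peaks of *Kdm4a* and *Kdm4b*, and in 62.9% of all peaks and 65.2% of outer windows. CACCCC was found in 3 of the 7 (*Kdm6b*, the *Kdm4b* peak in *Ptprs* and the first of *Jhdm1d*), in 25.8% of all peaks and in 11.9% of outer windows. A GC box was found in 2 of the 7 (*Kdm4a* and the second of *Jhdm1d*), against 4.49% of all peaks and 3.79% of outer windows. ATCATC was found in 1 (the second of *Kdm4b*), against 13.8% and 7.3%, and the homeodomain core TAATTA in none, against 4.07% and 6.11%. The PAX6 paired-domain site with at most 2 mismatches was found in 1 of the 7, in 9.79% of all peaks and in 9.02% of outer windows. Over so few peaks these shares are a description only.

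The 4 *Paupar* capture oligonucleotides of 24 nt were matched to the peaks. The paper recovered the DNA by elution with RNase H, and direct pairing of an oligonucleotide with DNA was not tested. An exact match of 10 nt or more lay in 2 of the 7, in 24.6% of all peaks and in 10.2% of the regions of the same size beside them. For the *LacZ* oligonucleotide it lay in none of the 7, in 0.281% of all peaks and in 0.386% of the regions beside them. The *Kdm6b* peak held 10 nt of oligonucleotide 2041, starting 20 bp left of its midpoint. The third *Kdm4b* peak held 11 nt of oligonucleotide 254, GAATCCAGGGG, starting at its midpoint. The *Jmjd1c* peak described below held the same 11 nt on the other strand. These 11 nt were found in 9 of the 2849 peaks (0.316%) and in 2 of 5698 regions beside them (0.0351%). This word was picked because a *Kdm4b* peak held it, and its part in the peaks was not tested. Both *Jhdm1d* peaks, the *Kdm4a* peak and the first 2 *Kdm4b* peaks held no match of 10 nt. The 2 oligonucleotides are shown with the matched bases in capitals, followed by the central 300 bp of the *Kdm4b* peak in *Ptprs*. There, capitals mark, in order, an E-box, a CACCCC and the match to oligonucleotide 254. Motifs were marked in the central 200 bp only, and a CACCCC at the left end of the stretch is unmarked. Oligonucleotide 254 itself contains CACCCC.
Capture oligonucleotide 2041: cTCTCAGAAACtgcgatacaaaag
Capture oligonucleotide 254: ggcttaagtccaCCCCTGGATTCg
Kdm4b, 113.6 kb downstream, chr17:56578907-56579206: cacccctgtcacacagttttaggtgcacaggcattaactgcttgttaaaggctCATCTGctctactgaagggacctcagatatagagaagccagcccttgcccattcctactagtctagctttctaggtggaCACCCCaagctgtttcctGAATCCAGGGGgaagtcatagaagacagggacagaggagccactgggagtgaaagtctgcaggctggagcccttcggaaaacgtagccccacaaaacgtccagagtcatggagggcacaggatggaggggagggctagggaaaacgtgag

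The *Paupar* sequence was taken as the 3517 nt of genome between the outer ends of the study's full-length cloning primers. This is slightly longer than the transcript length that the paper gives. Against it, the longest exact match on either strand was 10 to 12 nt in the 7 peaks, with a median of 11. The median over all peaks was also 11. The longest words that the 7 peaks shared with one another were 8 to 12 nt, with a median of 10 over the 21 pairs.

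The 6 genes without a peak differed in how far the nearest one was. Over all protein-coding genes on chromosomes with a peak, a peak was 277.4 kb away at the median, with quartiles of 96.2 and 762.1 kb. *Kdm1a*, the flavin-dependent H3K4 demethylase LSD1, was 258.2 kb from its nearest peak. *Phf2*, a close relative of KDM7A that acts on H3K9, was 321.0 kb away, and *Kdm2b*, whose CXXC zinc finger binds unmethylated CpG, was 425.6 kb away. *Kdm5b*, an H3K4 demethylase, was 734.7 kb away, and these 4 lay between the quartiles. *Kdm2a*, an H3K36 demethylase, was 947.6 kb away. *Kdm4c* was farthest at 3779.6 kb, and 2.33% of all genes were farther from a peak. *Kdm2b* shares its start region with *Orai1* on the opposite strand, so its domain ends 1 kb into the gene. The gene body, 144.4 kb long, held no peak either, and neither did the bodies of the other 5.

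Of 14 other demethylase genes, 1 had a peak (7.14%, beside the 16.5% of all genes), which makes 5 of 24 for the family. It was *Jmjd1c*, which encodes a relative of the H3K9 demethylase KDM3A. Its domain of 1001.0 kb held 4 peaks. All were upstream, where nearly all of the domain lies: it ends 1 kb past the gene start because *Reep3* starts there on the opposite strand. The annotation also has a second, short record of *Jmjd1c* at the same start, and leaving it out gave the same domain length and 4 peaks. The farthest was 2265 bp wide with a score of 46.7 (rank 87), 583757 bp from the gene start, and it was wider and of higher score than any peak of the listed genes. The next was 432 bp wide with a score of 13.94, 257530 bp upstream. The last 2 were 271 bp wide with a score of 7.25 at 177153 bp and 832 bp wide with a score of 19.85 at 173307 bp. They lay 3295 bp apart, in an exon of the long non-coding RNA gene *1110002J07Rik* and in the intron of *Gm17351*, another such gene. The 832 bp peak held the 11 nt match to oligonucleotide 254. No peak was found for *Kdm1b*, *Kdm3a*, *Kdm3b*, *Hr*, *Kdm4d*, *Kdm5a*, *Kdm5c*, *Kdm5d*, *Kdm6a*, *Uty*, *Phf8*, *Kdm8* (*Jmjd5* in the annotation) or *2410016O06Rik* (*Riox1*). Of the 24 genes 5 are on the sex chromosomes, of which X held 32 peaks and Y held 0.

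**Figure D5:**
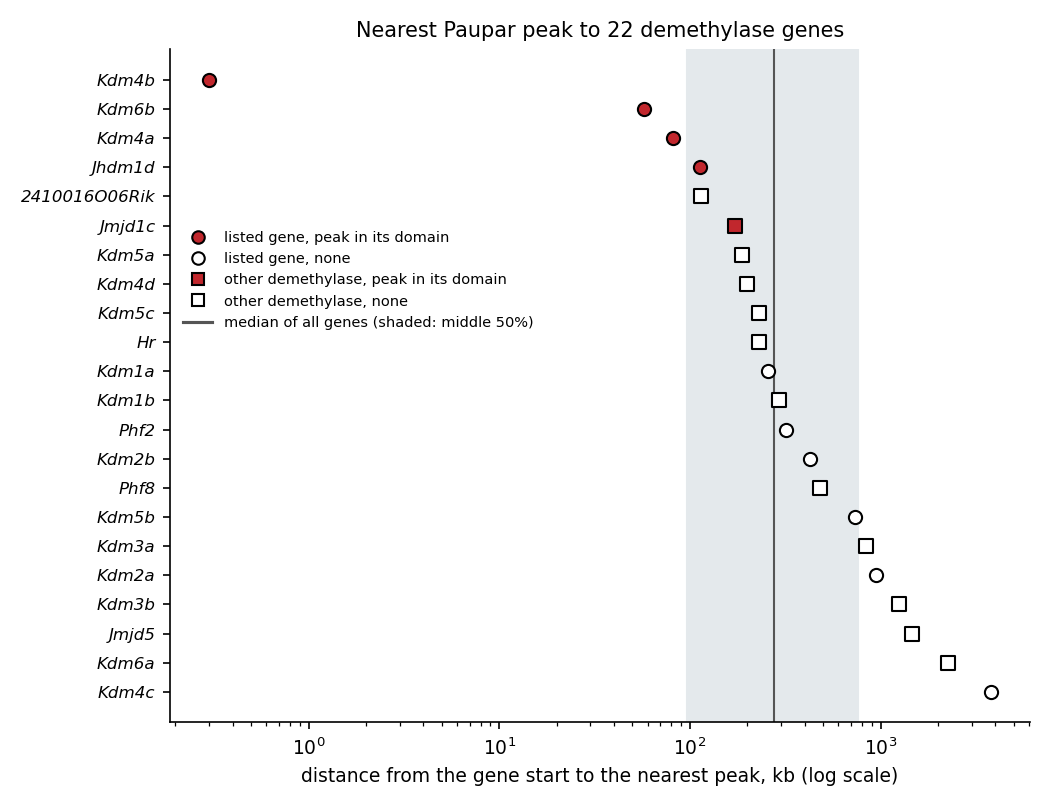
Distance in kb (log scale) between the start of each demethylase gene and its nearest *Paupar* peak, for the 10 listed genes (circles) and 12 of the 14 others (squares), filled where the peak lies in the gene's own domain. *Kdm5d* and *Uty* are on Y, which held no peak. Among all protein-coding genes the median was 277.4 kb (line) and the quartiles were 96.2 and 762.1 kb (edges of the shading).

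Lists of genes that act with or against demethylases were counted in the same way. Of 32 lysine methyltransferase genes, which write the marks, 6 had a peak (18.8%, close to the 16.5% of all genes), and none had more than 1. The closest to a gene start was the peak of *Whsc1l1*, an H3K36 methyltransferase, with its midpoint 270 bp upstream and a score of 16.18. *Ezh2*, the H3K27 methyltransferase of Polycomb, *Ehmt1*, *Mll2*, *Smyd2* and *Smyd3* were the others. Of 21 genes listed as demethylase partners, 7 had a peak (33.3%, beside the same 16.5%). These were *Rcor1*, *Phf21a* and *Hdac2* of the complex around LSD1, *Rybp* and *Usp7* of the Polycomb complex that KDM2B brings to CpG islands, *Jarid2*, and *Arid5b*, the partner of PHF2. *Rybp* had most, with 3 peaks, and its nearest, 46031 bp from the gene start, was also the closest of the list. *Rybp*, *Hdac2*, *Jarid2* and *Arid5b* have domains of 938.8, 626.7, 1215.0 and 560.3 kb, in the range where 37.5% of all genes had a peak. The other 14 partner genes had none, among them *Rcor2*, *Rcor3*, *Hdac1* and *Hmg20b* of the LSD1 complexes and *Pcgf1*, *Bcor*, *Ring1* and *Rnf2* of the Polycomb complex. The domains of the methyltransferases held 0.879 peaks per Mb and those of the partners 1.57. The density was 2.6 for the 10 listed demethylases, 1.3 for the 14 other demethylases and 1.17 for all genes.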

How the data were processed

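The labels give 2 *Paupar* pull-downs, 2 *LacZ* pull-downs and 1 input DNA library of N2A cells, and per the methods the authors aligned paired-end reads with Bowtie (mm9, uniquely placed reads only), called peaks with MACS2 against *LacZ* and against input, and filtered the calls on the q-value. The deposited list holds the peaks found in both comparisons, each with a score whose unit is not stated. How the calls of both pull-downs were joined, and which comparison the score comes from, are not given in the sources used here. Depth per library is unknown from the list, so no value has an error and no test was run.

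Gene starts came from GENCODE annotation on NCBIM37 (22380 protein-coding genes), and sequences from that genome. All 2849 peaks lay within its chromosomes. Primer and oligonucleotide sequences came from the study's supplementary spreadsheets. Matches were exact on both strands, except 2 mismatches for the PAX6 site. The members and lists were chosen with earlier results of these data known. All 10 members were named, and of the other lists the gene with most peaks, that with the closest peak, and those found with a peak. Domain assignment and sequence search were tested on simulated data. Python 3.11.15, scipy 1.17.1 and matplotlib 3.10.9 were used.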

Additional observations from a re-analysis of the deposited data

How the results depend on the processing

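With 1 list of peaks and no value per library, replicates could not be left out in turn. No paired analysis was possible because the list carries no values per replicate. Of 50 recalculations, 28 left the value as it was or within the limit set (1.5 times for counts, the 95% Wilson interval for the share of genes) and 22 did not. Median distances and densities have no spread here, so any change in them was counted. The recalculation with *Jmjd1c* as 1 gene record was chosen after seeing the data and left 1 other demethylase gene with a peak.

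With scores of 10 or more, 3 of the 10 genes had a peak, since the *Kdm6b* peak fell away. Their domains then held 4 peaks, that of *Jhdm1d* 1, and 12.7% of all genes had a peak. The median distance became 81.9 kb and the density 1.48 peaks per Mb. With peaks within 10 kb merged, *Jhdm1d* held 1 and the density was 2.23 per Mb. With domains extended by at most 100 kb, *Jhdm1d* held 0, the listed genes 4 and the other demethylases with a peak were 0, while 11.9% of all genes had one. The median distance was then 57.3 kb and the density 3.03 per Mb. With each peak given to the nearest gene start only, *Kdm4b* and *Kdm6b* were the 2 genes with a peak, with 3 peaks in all, *Jhdm1d* held 0, 9.95% of all genes had one and the median distance was 28.8 kb. No density was computed there, as this rule has no domain. The *Jhdm1d* result thus depends on domains that reach past 100 kb and are shared with a neighbour. Counting any overlapping base left the 10 genes' values as they were.

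A match of 9 nt to a capture oligonucleotide was found in 6 of the 7 peaks (58.5% of all peaks) and one of 12 nt in 0 (1.76%). A PAX6 site with at most 1 mismatch was found in 0 of the 7 (0.667% of all) and with at most 3 in 3 (62.4%). With the whole peak searched at 2 mismatches it was found in 1 of the 7 (28.2% of all).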

Other observations

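Next to *Kdm4a* and *Kdm4b*, but not next to *Kdm4c*, lies a gene of the same family of receptor-type phosphatases, a pattern noticed after the values were seen. The *Kdm4a* peak lay in an intron of *Ptprf* and the third *Kdm4b* peak in an intron of *Ptprs*. The gene starts were 111.4 kb apart for *Kdm4a* and *Ptprf* and 150.4 kb apart for *Kdm4b* and *Ptprs*. *Ptprd*, a further gene of this phosphatase family, lies on the chromosome of *Kdm4c* with its start 3969.5 kb away. Its gene body of 2270.7 kb and its regulatory domain held 0 peaks, as did the domain of *Kdm4c*. *Ptprf* is on the same strand as *Kdm4a*, and *Ptprs* and *Ptprd* are on the strands opposite to *Kdm4b* and *Kdm4c*.

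The *Kdm6b* peak had the longest stretches of *Paupar* sequence beside it. The longest exact matches to the transcript were 35 nt and 45 nt in the regions of its own size on its left and right, against 11 nt in the peak itself. For the other 6 peaks the regions alongside held at most 15 nt. Within the 2849 peaks of the list the longest match was 11 nt at the median and 62 nt at most. No such values are given here for the regions beside all peaks. Whether the long stretches beside the *Kdm6b* peak are repeated sequence was not tested.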
